A study of Homo sapiens with 18 samples.

Results

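Of the 58003 rows counted in each library, 6 came from transposable vectors and not from the human genome, and their levels in all 18 libraries are described here. They were chosen by their identifiers: exogenous APP (ExogenousAPPid), the hygromycin resistance gene (HYGrID), exogenous ABCC1 (ExogenousABCC1id), the puromycin resistance gene (PURrID), EGFP (ExogenousEGFPid) and the blasticidin resistance gene (BLArID). The libraries were made from BE(2)-m17, a human neuroblastoma cell line, in 3 experiments with 3 libraries of each line. All cells carried pSBbi-Hyg-APP. The empty vector cells also carried pSBbi-Pur and the ABCC1 cells pSBbi-Pur-ABCC1. Neither hygromycin nor puromycin was added during the 4 days of culture that preceded lysis. The lines were selected populations in which the vectors had been placed by a transposase, and no cloning step is described. The labels number the experiments, and the second and the third were taken as cryopreserved and newly transfected cells because the paper lists the repeats so. Both a TruSeq and a SMARTer kit appear in the labels of the first experiment, for which the paper gives TruSeq, and the other experiments used SMARTer total RNA libraries, so that experiment and library kit cannot be told apart between the first experiment and the rest.

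APP is the precursor protein from which amyloid-beta is cut, and ABCC1 is a transporter of the ATP-binding cassette family that moves conjugated compounds out of the cell. Sleeping Beauty vectors of the pSBbi series hold an insert and a resistance gene between the ends of a transposon, read in opposite directions from separate promoters, with the promoter of the human elongation factor gene EEF1A1 in front of the insert and a synthetic promoter in front of the resistance gene. The transposase pastes copies into many places of the genome. The hygromycin resistance gene encodes a phosphotransferase, the puromycin resistance gene an acetyltransferase and the blasticidin resistance gene a deaminase, each of which inactivates its antibiotic, and EGFP is a fluorescent marker protein.

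On pSBbi-Hyg-APP the counted stretch of APP ran from base 605 to 2917 on the minus strand, 2313 bases, and that of the hygromycin resistance gene from 4763 to 5788 on the plus strand, 1026 bases. On pSBbi-Pur-ABCC1 the ABCC1 stretch covered 605 to 5200 on the minus strand, 4596 bases, and the puromycin resistance gene 7046 to 7645 on the plus strand, 600 bases. Neither pair overlaps, so no base was counted for both insert and resistance gene. Counting without strand would also take in antisense or read-through transcripts, and their part was not tested. EGFP (605 to 1324, minus strand, 720 bases) and the blasticidin resistance gene (3170 to 3568, plus strand, 399 bases) lay on a vector named pSBbi-Bla-EGFP, which the labels give to neither line. The APP stretch was as long as the coding sequence of the 770-residue form (APP-201 in GENCODE v29) and the ABCC1 stretch as long as that of the 1531-residue form (ABCC1-202). The annotation names both inserts as codon-optimized, and their sequences were not used here. How many reads of an insert could be assigned to the endogenous gene, or the reverse, was therefore not tested. For ABCC1, whose insert only the ABCC1 cells carry, the levels of both rows in both lines are given below. For APP, whose insert both lines carry, no such comparison exists. The endogenous genes were counted over exons of 6349 bases for APP (ENSG00000142192, GRCh37 chr21:27252861-27543446, minus strand) and 7575 bases for ABCC1 (ENSG00000103222, GRCh37 chr16:16043434-16236931, plus strand).

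The inserts and the endogenous genes are read from different promoters. The 250 bases before the start of EEF1A1, the gene whose promoter lends its name to the one in front of the inserts, and before a start of endogenous APP are shown from RefSeq on GRCh38.p14, a build used for these sequences alone. The EEF1A1 window is chr6:73521033-73521282 and the APP window chr21:26170771-26171020, both on the minus strand. Capitals mark a match to TATANAA, searched on both strands.
EEF1A1: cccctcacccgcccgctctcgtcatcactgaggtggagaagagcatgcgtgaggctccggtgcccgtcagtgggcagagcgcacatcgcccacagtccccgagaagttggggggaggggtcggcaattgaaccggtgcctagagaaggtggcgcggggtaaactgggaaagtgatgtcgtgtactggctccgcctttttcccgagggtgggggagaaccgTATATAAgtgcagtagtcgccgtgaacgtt
APP: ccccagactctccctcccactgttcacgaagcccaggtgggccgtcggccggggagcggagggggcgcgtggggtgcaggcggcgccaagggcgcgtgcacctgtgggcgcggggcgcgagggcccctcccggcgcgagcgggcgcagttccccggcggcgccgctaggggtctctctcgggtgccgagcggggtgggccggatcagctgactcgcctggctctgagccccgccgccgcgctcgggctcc
The EEF1A1 window held 1 match, which began 30 bases before the start, and the APP window held none, nor did that before another listed start of APP (chr21:26171129-26171378). Of 35116 promoter windows of this length, 8.41% held a match. G and C made up 61.6% of the EEF1A1 window, 78.8% of the APP window shown and 47.6% of the other APP window.

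Each library gave 8866994 to 57937653 assigned read pairs, of which the 6 vector rows took 0.354% to 1.32%. Of 10 markers of adrenergic neuroblastoma cells, all reached a mean of 1 CPM (counts scaled to a library total of 1000000) in every group. Reads on 372 olfactory receptor genes, taken as silent sequence, averaged 0.00406 to 0.00483 CPM per kilobase in the groups of the first experiment, 0.619 with the empty vector and 0.287 with ABCC1 in the second, and 1.64 and 1.19 in the third. Markers of blood, epithelial and endothelial cells were also higher in the later experiments, whereas 5 fibroblast markers summed to 77.1 to 136.7 CPM there. In the first experiment these 5 summed to 132 to 136 CPM in the empty vector libraries and to 206 to 210.2 in those with ABCC1, and the 10 neuroblastoma markers to 13238 to 14203 against 11314 to 12549. Neither sum overlapped between the lines, and the part of these markers in the line differences of that experiment was not tested. The 4 blood markers summed to 0.156 to 0.479 CPM in the first experiment, 1.83 to 12.5 in the second and 17.5 to 36.2 in the third. In both later experiments the scaling factors of the fits moved with this background, and the median log2 fold change (log2FC) of all genes was -0.19 and -0.09 with these factors and -0.39 and -0.22 with library totals alone. Ratios of rows within a library are free of this choice. Levels below are CPM per kilobase of the counted stretch without scaling factors, as mean ± SD of 3 libraries, and log2FC is ABCC1 minus empty vector fitted with edgeR, its quasi-likelihood p-values adjusted over all rows by the Benjamini-Hochberg method.

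**Figure D1:**
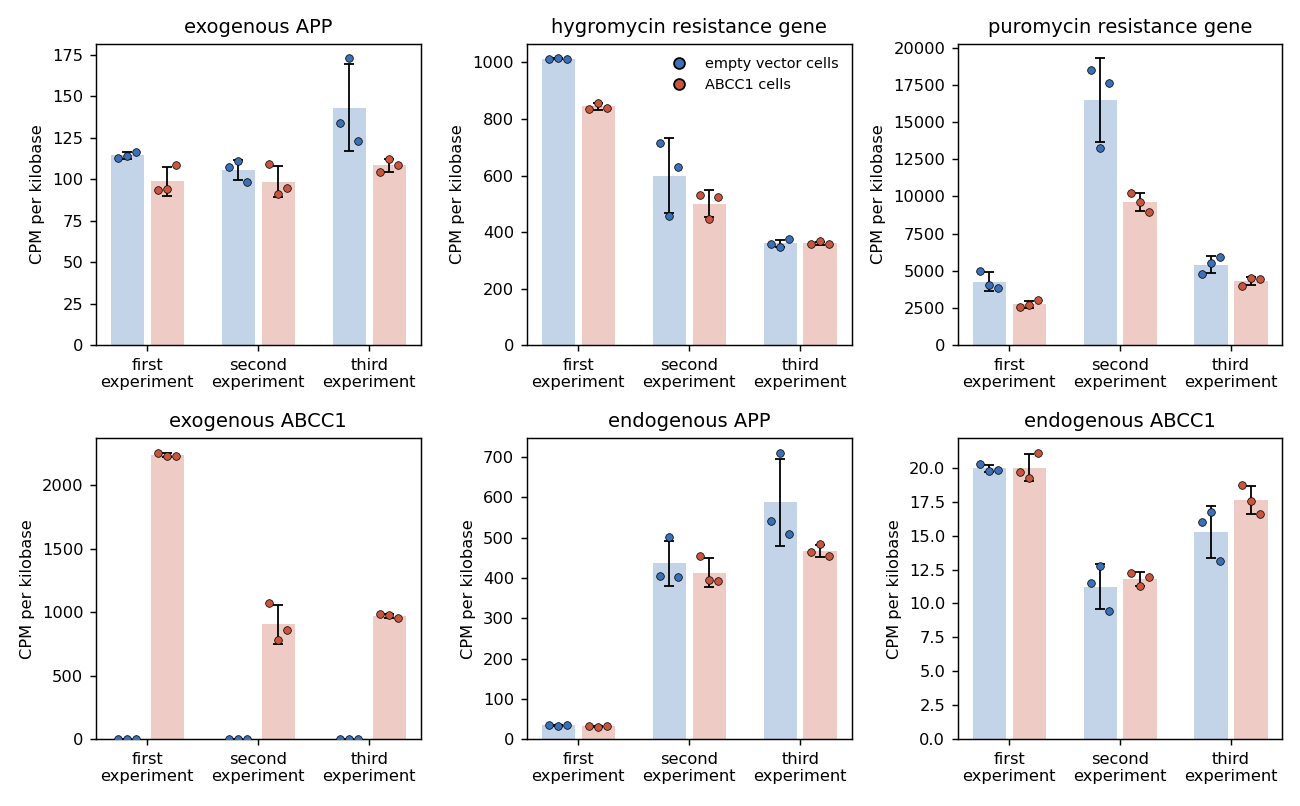
Levels of the 4 vector rows that the lines carry and of the endogenous genes, in CPM per kilobase of counted sequence (vertical axes, each from 0), for empty vector cells (blue) and ABCC1 cells (red) in each experiment; points are libraries, bars are means and whiskers are SD (n = 3). The puromycin resistance gene sat higher in the empty vector than in the ABCC1 libraries of every experiment, and exogenous ABCC1 was near 0 in all empty vector libraries.

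The first question was whether each line expressed the vectors named for it. Exogenous ABCC1 stood at 2259, 2231 and 2232 CPM per kilobase in the ABCC1 cells of the first experiment, at 1077, 780 and 865 in those of the second and at 986, 978 and 957 in those of the third. In the empty vector cells it had 11, 5 and 15 counts in the first experiment, 2, 8 and 3 in the second and 1, 0 and 3 in the third. All 9 ABCC1 libraries were thus far above all 9 empty vector libraries, and every library fitted its label. With the counts of a group summed, the insert was 34227-fold higher in the ABCC1 cells of the first experiment (exact 95% interval from 24113 to 50375), 22194-fold in the second (12979 to 41683) and 34193-fold in the third (13354 to 125494). These intervals cover counting error only. The fitted log2FC ran from 14.84 to 15.45 in the first experiment when single libraries were left out, from 14.35 to 15.20 around 14.61 in the second and from 14.49 to 16.38 around 15.06 in the third. The highest value of the second came without replicate 2 of the empty vector cells (8 of the 13 counts) and that of the third without their replicate 3 (3 of the 4 counts). Endogenous ABCC1 was at 19.9 ± 0.259 CPM per kilobase in empty vector and 20.0 ± 0.978 in ABCC1 cells in the first experiment, 11.2 ± 1.67 and 11.8 ± 0.502 in the second and 15.3 ± 1.90 and 17.6 ± 1.06 in the third. Its log2FC did not pass the test in any experiment (-0.01, 0.28 and 0.32, adjusted p = 0.862, 0.323 and 0.407 by edgeR), and the first of these signs turned with library totals alone (0.0049). Without replicate 2 of the empty vector cells the third comparison passed (0.49, adjusted p = 0.0148 by edgeR).

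Among the other members of the ABCC transporter family, a list of 11 genes with ABCC1, 6 of 9 tested rose and none fell in the first experiment, where 37.6% of all genes tested were called. In that experiment 3040 of 16995 genes were called higher. ABCC11 went from 0.654 ± 0.164 to 3.12 ± 0.319 CPM and ABCC6, which lies beside ABCC1 on its chromosome, from 1.91 ± 0.149 to 3.43 ± 0.233 CPM. ABCC2, ABCC4, ABCC5 and ABCC8 rose by a log2FC of 0.15 to 0.55. In the second experiment ABCC3 alone of 10 tested was called, at a log2FC of -0.99, and in the third none of 10 was, against 1.70% and 2.80% of all genes. ABCC3 stood there at 14.6 ± 2.68 CPM with the empty vector and 6.46 ± 2.58 with ABCC1, against 1.25 and 1.48 CPM in the first experiment. The olfactory receptor background of the second experiment was likewise higher with the empty vector, 0.619 against 0.287 CPM per kilobase, and its part in the call was not tested. The medians of the list, ABCC1 included, were 0.20, -0.18 and -0.28 against medians of all genes of 0.01, -0.19 and -0.09.

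Exogenous APP, on the vector that both lines carry, was compared between them within each experiment. Its level was 113, 114 and 117 CPM per kilobase in the empty vector libraries of the first experiment against 93.3, 94.3 and 109 in the ABCC1 libraries. In the second experiment the values were 107, 111 and 98.7 against 109, 91.3 and 95. In the third they were 134, 173 and 123 against 104, 113 and 108. The lines overlapped only in the second experiment. A complete separation with ABCC1 lower was also seen for 23.9%, 22.3% and 14.9% of all genes tested in the first, the second and the third experiment. The log2FC was -0.23 in the first experiment (SE 0.06, adjusted p = 0.0101 by edgeR), where 37.6% of genes were called and 19.7% called lower. It was 0.11 in the second (adjusted p = 0.750) and -0.29 in the third (adjusted p = 0.532), where 1.70% and 2.80% of genes were called. The call of the first experiment was lost without replicate 3 of the empty vector cells (-0.21, adjusted p = 0.0567 by edgeR) and with a spread shared across all 18 libraries (-0.12, adjusted p = 1.0 by edgeR). The value of the third experiment was -0.023 without replicate 2 of the empty vector cells and -0.15 without replicate 1 of the ABCC1 cells. With library totals alone the second value turned to -0.10 (adjusted p = 0.696) and the third passed at -0.40 (adjusted p = 0.0168 by edgeR).

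The hygromycin resistance gene shares its vector with exogenous APP. It was at 1013, 1015 and 1012 CPM per kilobase in the empty vector libraries of the first experiment and at 836, 858 and 840 in the ABCC1 libraries, a tight pair of groups. In the second experiment the values were 714, 457 and 629 against 532, 446 and 524, and in the third 358, 348 and 374 against 358, 367 and 357. These latter groups overlapped. The log2FC was -0.28 in the first experiment (SE 0.04, adjusted p = 0.000310 by edgeR), a call lost with the shared spread (-0.18, adjusted p = 0.907 by edgeR). It was -0.06 in the second (adjusted p = 0.893), a sign that turned with RLE size factors (0.065), and 0.13 in the third (adjusted p = 0.814).

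The puromycin resistance gene was the most abundant vector row per kilobase. In the first experiment it ranked first of all rows in each empty vector library, at 4974, 4014 and 3844 CPM per kilobase, and stood at 2574, 2673 and 3009 in the ABCC1 libraries. In the second experiment it was at 18527, 13279 and 17615 against 10224, 9635 and 8973, and in the third at 4773, 5508 and 5928 against 3978, 4491 and 4465. The lines did not overlap in any of the 3 experiments, with ABCC1 lower each time, a pattern shown by 2.99% of the 16689 genes tested in each. After scaling, the log2FC was -0.65 in the first experiment (SE 0.10, adjusted p = 0.000839 by edgeR), -0.57 in the second (SE 0.23, adjusted p = 0.154) and -0.20 in the third (SE 0.25, adjusted p = 0.770). The call of the first experiment was lost with the shared spread (-0.55, adjusted p = 0.182 by edgeR) and without a filter on low counts (-0.64, adjusted p = 0.0519 by edgeR). Without single libraries the third value ran from -0.28 to -0.035, the latter without replicate 1 of the ABCC1 cells. With library totals alone the second passed at -0.78 (adjusted p = 0.0457 by edgeR) and the third was -0.33 (adjusted p = 0.148). Endogenous APP, for comparison, had a log2FC of -0.13 (adjusted p = 0.0207 by edgeR), 0.13 (adjusted p = 0.744) and -0.22 (adjusted p = 0.747), where the second sign turned with library totals alone (-0.080), and the call of the first experiment was lost without either of 2 libraries of each line. It was also lost with the shared spread (-0.027, adjusted p = 1.0 by edgeR), without the filter on low counts (-0.12, adjusted p = 0.0576 by edgeR) and with a replicate block (-0.13, adjusted p = 0.0630 by edgeR). No dependence of the line difference on the experiment passed for any of these 4 rows (interaction in edgeR, adjusted p from 0.831 for the puromycin resistance gene to 0.955 for endogenous APP), a test that called 1.19% of all genes and that does not show equal differences.

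As the libraries of a line hold both vectors, the ratio of the resistance genes compares them within each library. Puromycin over hygromycin resistance, per kilobase, was 4.91, 3.96 and 3.80 with the empty vector in the first experiment, against 3.08, 3.12 and 3.58 with ABCC1. It was 25.9, 29.1 and 28.0 against 19.2, 21.6 and 17.1 in the second, and 13.3, 15.8 and 15.9 against 11.1, 12.2 and 12.5 in the third. The ratio was lower in the ABCC1 cells in each experiment without overlap. The same separation of the ratio to the hygromycin resistance gene was seen in all 3 experiments for 0.596% of 14773 genes with at least 10 counts in every library, and in the first, the second and the third experiment for 6.84%, 9.16% and 16.4% of those with 10 counts there.

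Averaged over the experiments, the log2 ratio was lower by 0.41 in the ABCC1 cells (difference -0.41, a fold of 0.755). An exact two-sided permutation test within experiments gave p = 0.00025, the smallest that 8000 arrangements allow, and 0.00075 after adjustment over the 3 ratios compared between lines. The test treats libraries as separate samples, so it measures the spread between libraries and not between transfections. The paper repeats its work with cryopreserved and with freshly transfected cells, so the first and the second experiment may share their transfections. Within a single experiment the differences were -0.37, -0.52 and -0.33, each at the smallest p of 0.1 that an exact permutation of 3 against 3 can give. Leaving out any library kept the difference between -0.43 and -0.37. In these bulk samples fewer cells with a vector and less RNA per cell cannot be told apart.

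**Figure D2:**
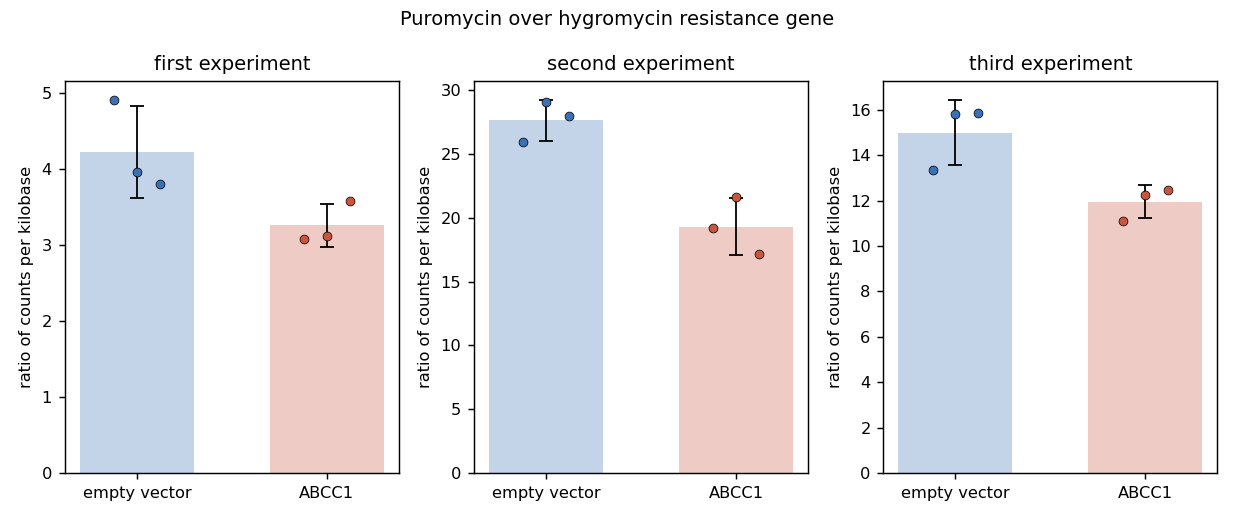
Ratio of the puromycin to the hygromycin resistance gene, in counts per kilobase, for empty vector (blue) and ABCC1 (red) cells, with a panel and a vertical axis from 0 for each experiment; points are libraries, bars means and whiskers SD (n = 3). The points of the lines do not overlap in any panel, with means of 4.22 and 3.26 in the first, 27.7 and 19.3 in the second and 15.0 and 12 in the third experiment.

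The resistance genes also differed between the experiments made with one kit. From the second to the third experiment the hygromycin resistance gene fell, with a log2FC of -1.45 in empty vector cells (adjusted p = 1.09e-06 by edgeR) and -1.23 in ABCC1 cells (adjusted p = 1.51e-05 by edgeR). The puromycin resistance gene fell further, with -2.32 (adjusted p = 7.38e-09 by edgeR) and -1.91 (adjusted p = 2.51e-07 by edgeR). Of all genes, 12.2% were called lower in empty vector cells and 15.9% in ABCC1 cells. With library totals alone the falls were smaller and still passed, at -0.73 and -0.47 for hygromycin and -1.61 and -1.15 for puromycin resistance. Exogenous APP and exogenous ABCC1 did not keep their sign. In ABCC1 cells their log2FC was -0.62 and -0.67 with scaling factors (adjusted p = 0.0170 and 0.0280 by edgeR) and 0.14 and 0.10 with library totals (adjusted p = 0.330 and 0.541). In empty vector cells that of exogenous APP was -0.25 (adjusted p = 0.464) and 0.44 (adjusted p = 0.0101 by edgeR). The cells and the background changed together between these experiments and cannot be told apart.

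The next question was how each insert stood to its resistance gene. Exogenous APP over hygromycin resistance, per kilobase, was 0.110 to 0.129 in the 6 libraries of the first experiment, 0.150 to 0.243 in the second and 0.292 to 0.497 in the third. The resistance gene was the more abundant in every library. Across the lines the mean log2 difference was -0.07 (exact permutation p = 0.554, adjusted 0.554), with 0.05, 0.14 and -0.39 in the experiments in turn. In the third experiment the ratios of the ABCC1 libraries, 0.292, 0.307 and 0.303, were all under those of the empty vector libraries, 0.374, 0.497 and 0.329, at the smallest p an exact permutation allows there (0.1). The same was seen for the ratio of 16.4% of genes to the hygromycin resistance gene in that experiment.

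Exogenous ABCC1 over puromycin resistance was 0.878, 0.835 and 0.742 in the ABCC1 libraries of the first experiment, 0.105, 0.0810 and 0.0964 in the second and 0.248, 0.218 and 0.214 in the third. The 3 experiments did not overlap, and the spread within each was no more than 1.30-fold. From the second to the third the ratio was 2.41-fold higher (log2 1.27, exact permutation p = 0.1, the smallest possible). Most genes moved in the same way against the puromycin resistance gene, whose own level fell: 95.2% of 22250 genes had a higher ratio to it in the third experiment without overlap.

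The inserts were then set against the endogenous genes. Exogenous over endogenous ABCC1, per kilobase, was 115, 116 and 106 in the first experiment, 87.9, 69.3 and 72.4 in the second and 52.6, 55.8 and 57.6 in the third, so that the insert exceeded the endogenous gene in all 9 libraries of ABCC1 cells. The third experiment lay below the second without overlap (log2 difference -0.46, exact permutation p = 0.1, the smallest possible), as did the ratio of 30.1% of 22249 other genes to endogenous ABCC1.

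**Figure D3:**
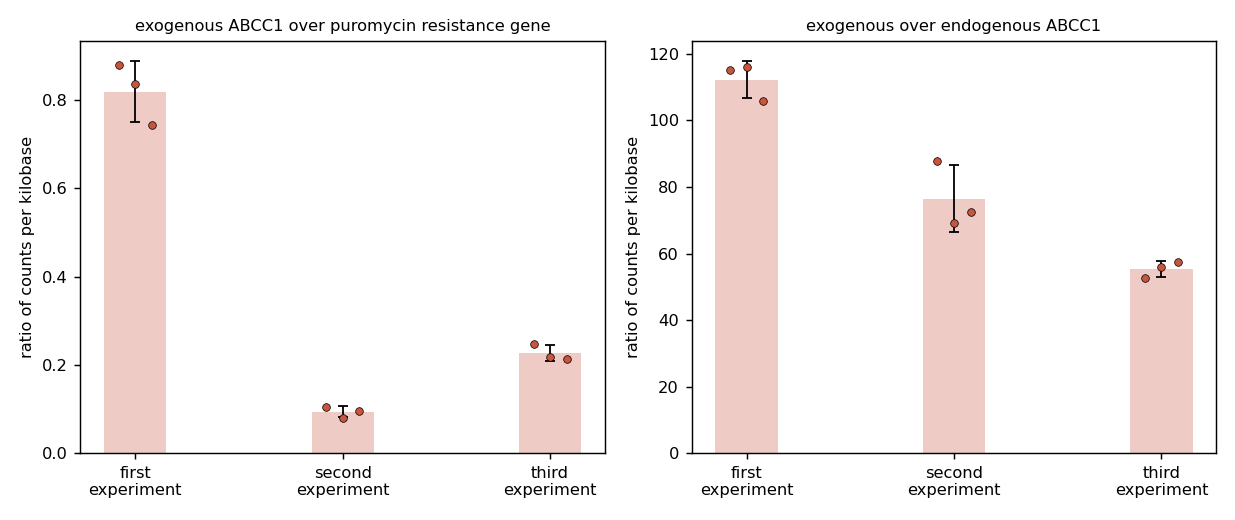
Exogenous ABCC1 in the ABCC1 cells relative to the puromycin resistance gene (left) and to endogenous ABCC1 (right), as ratios of counts per kilobase on axes from 0; points are libraries, bars means and whiskers SD (n = 3). Against the resistance gene the second experiment was lowest, at a mean of 0.0942, and against the endogenous gene the third was, at 55.4.

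For APP the ratio split by experiment. Exogenous over endogenous APP was 3.18, 3.35 and 3.30 with the empty vector and 2.88, 2.95 and 3.33 with ABCC1 in the first experiment. In the second it was 0.264, 0.222 and 0.246 against 0.240, 0.231 and 0.243, and in the third 0.246, 0.243 and 0.242 against 0.224, 0.232 and 0.238. The insert was thus above the endogenous gene in every library of the first experiment and below it in all 12 others. Endogenous APP itself was at 34.9 ± 0.857 CPM per kilobase in the empty vector cells of the first experiment, 436 ± 55.9 in those of the second and 588 ± 108 in those of the third, whereas exogenous APP was at 114 ± 2.05, 106 ± 6.30 and 143 ± 26.3. In the same cells EEF1A1 was at 139 ± 5.32, 1359 ± 140 and 718 ± 105, ACTB at 438 ± 25.6, 258 ± 65.5 and 490 ± 96.6 and GAPDH at 831 ± 23.0, 368 ± 59.1 and 462 ± 88.2 CPM per kilobase. Of the summed APP level per kilobase, the insert made up 74.2% to 77.0% in the first experiment and 18.1% to 20.9% in the others. Experiment and library kit cannot be told apart in this split. How reads were shared between the APP rows was not tested, so these are shares of counted reads.

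Over the 12 libraries of the later experiments the ratio of exogenous to endogenous APP ranged from 0.222 to 0.264, a span of 1.19-fold. Exogenous APP over its own resistance gene spanned 3.31-fold in the same libraries. Between the lines, the mean log2 difference of exogenous over endogenous APP was -0.07 (exact permutation p = 0.0603, adjusted 0.0904), and it was below 0 in all 3 experiments (-0.10, -0.03 and -0.07). With medians in place of means the difference was -0.09 (exact permutation p = 0.0400), and over the omissions of 1 library p ranged from 0.00525 to 0.152 (exact permutation). Of these omissions, 3 brought it to 0.05 or less.

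**Figure D4:**
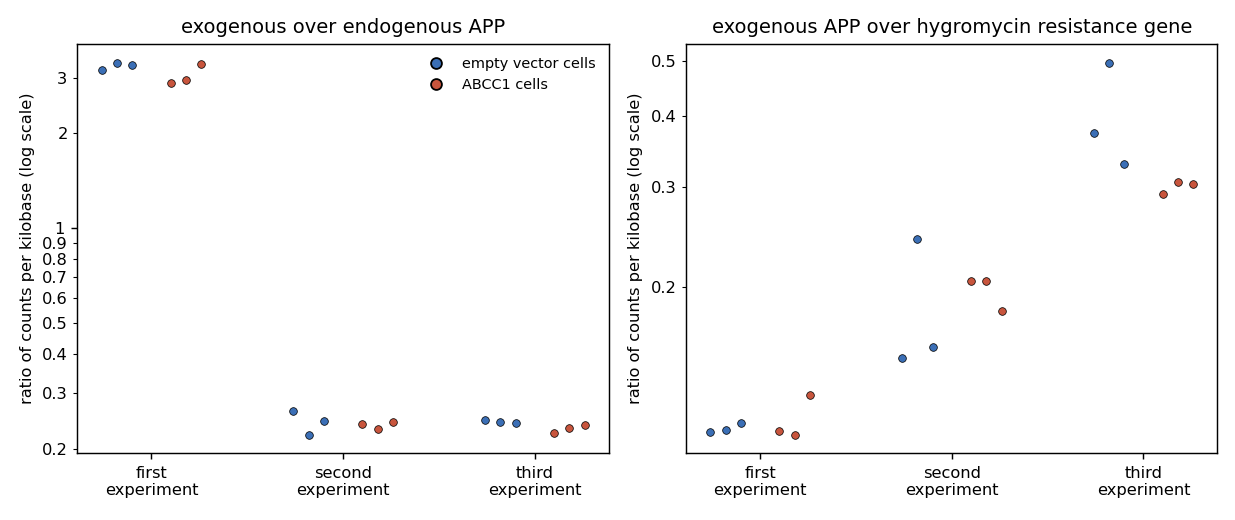
Exogenous APP relative to endogenous APP (left) and to the hygromycin resistance gene (right), as ratios of counts per kilobase on log axes; each point is a library of empty vector (blue) or ABCC1 (red) cells. The 12 libraries of the later experiments lie between 0.222 and 0.264 on the left and between 0.150 and 0.497 on the right.

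The closeness of exogenous and endogenous APP also showed in their course over the libraries. Genes were ranked by the root mean square difference of log2 CPM from a vector row over the 18 libraries, after the mean of each experiment was set to 0, among 9018 genes with a mean of at least 10 CPM in every experiment. For exogenous APP the nearest were SRRT (0.069), endogenous APP (0.072) and ZMIZ2 (0.072), against a median over genes of 0.23. The hygromycin resistance gene on the same vector stood at rank 3547. For the hygromycin resistance gene the nearest were ARF5 (0.091), SH3TC1 (0.099) and MED21 (0.11), and for the puromycin resistance gene ARHGEF10L, CENPI and UBE2S (0.17 each). No gene came near exogenous ABCC1, as follows for a row almost missing from empty vector libraries and abundant in ABCC1 libraries. Its nearest, ARC, EGR1 and ENSG00000261526, differed by 6.43 or more, against a median over genes of 7.17. The libraries share their depth and background, and exchange of reads between the APP rows was not tested, so this ranking is a description. In the APP family, endogenous APP was the only 1 of 3 genes called, in the first experiment, where 37.6% of all genes were called, and its relatives APLP1 and APLP2 did not pass in any.

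The last question concerned rows of vectors that a line should not carry. The counts of exogenous ABCC1 in empty vector cells came to 31 in the first experiment, 13 in the second and 4 in the third, against 1506160, 356988 and 167270 in ABCC1 cells of the same experiments. In single libraries they corresponded to 0.474 CPM at most in the first experiment (15 counts, exact Poisson 95% interval from 0.265 to 0.781), 0.288 in the second (0.124 to 0.567) and 0.338 in the third (0.0698 to 0.989). The intervals of the 3 ratios between the lines overlapped.

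EGFP was not detected in the first experiment, where 0 counts in each library allow up to 0.0518 to 0.109 CPM. In the second experiment the empty vector libraries had 31, 38 and 17 counts and the ABCC1 libraries 0, 0 and 2. In the third they had 15, 9 and 4 against 1, 0 and 0. The lines did not overlap in either experiment, a separation that 22.3% and 14.9% of all genes tested showed with ABCC1 lower. Summed over a group, EGFP was at 1.26 CPM in empty vector and 0.0236 in ABCC1 cells of the second experiment, a ratio of 53.2 (95% counting interval from 14.3 to 446), and at 0.915 and 0.0267 in the third, a ratio of 34.2 (5.66 to 1400). These intervals cover counting error only and are not a test between the lines. Of the separate fits of the 3 experiments, EGFP passed the filter on low counts in that of the second alone. It also passed in the fits that joined experiments. Its counts reached 10 in empty vector libraries only, the group where it is high, so no test of it is given.

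Per kilobase, EGFP in the empty vector cells stood at 1.74 CPM in the second experiment, where 11 of 372 olfactory receptor genes were at or above it, and at 1.26 CPM in the third, where 200 of 372 were. In the ABCC1 cells it stood at 0.0299 and 0.0411, below 356 and 365 of these genes. Olfactory receptor genes are human sequence, and EGFP is not. The 92 rows of spike-in controls, also not human, had 1 count in the empty vector cells of the second experiment. They had 0 in every other group of both later experiments. Background was higher in the empty vector than in the ABCC1 libraries of both experiments, by means of 0.619 against 0.287 and 1.64 against 1.19 CPM per kilobase of the olfactory receptor genes, and its part in the EGFP counts was not tested. The blasticidin resistance gene of the same vector had 0, 1 and 2 counts in the empty vector and 0, 3 and 0 in the ABCC1 libraries of the second experiment, and none elsewhere.

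**Figure D5:**
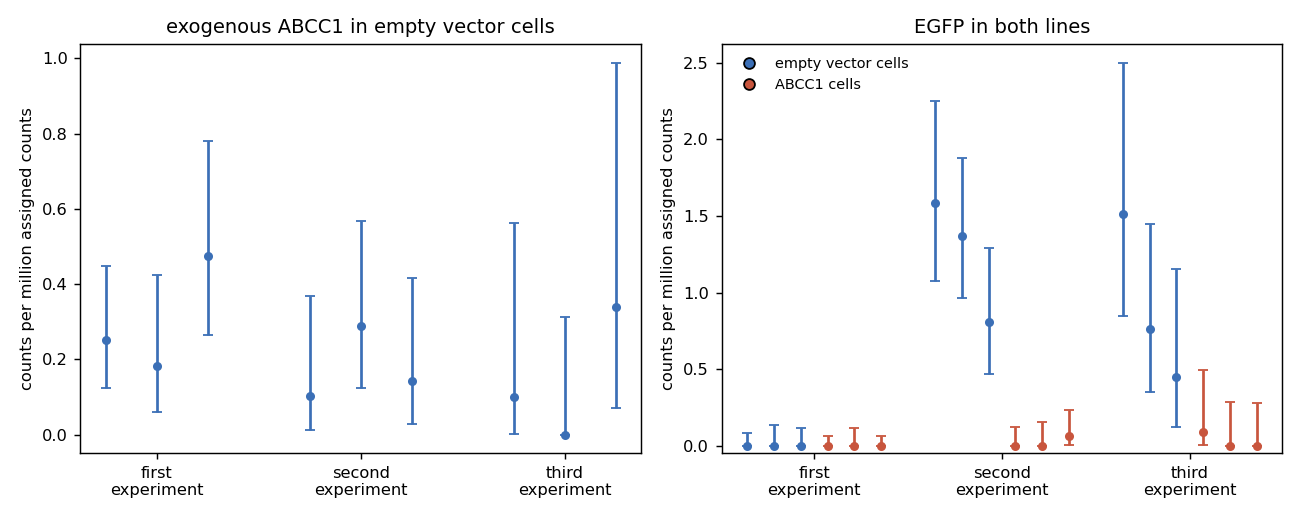
CPM of exogenous ABCC1 in the empty vector libraries (left) and of EGFP in all libraries (right), by experiment; points are libraries of empty vector (blue) and ABCC1 (red) cells, and whiskers are exact 95% Poisson intervals. EGFP was at 0.451 to 1.58 CPM in the empty vector libraries of both later experiments and at 0.0888 CPM or less in the ABCC1 libraries.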

How the data were processed

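Paired reads were aligned by the authors with STAR 2.7.3a to GRCh37 with the vectors added and counted per row with featureCounts of Subread 2.0.0, over exons, by read pair and without strand. Reads in FASTQ form were generated with bcl2fastq 2.18. The deposited values are raw counts with no normalization, and read pairs that map to several places were not counted, which can lower rows that share sequence. All 18 libraries were mapped to their groups by the labels. Replicate numbers follow the sample titles, and the deposited names of the third experiment carry other numbers.

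CPM (counts scaled to 1000000 assigned counts) was computed and divided by the counted length for comparisons between rows. Lines were compared within each experiment in R 4.3.3 with edgeR 4.0.16 (robust quasi-likelihood test, TMM factors, filterByExpr at a minimum count of 10, two-sided, Benjamini-Hochberg over all rows, called at an adjusted p of at most 0.05), and the groups of both later experiments were fitted together. Log2 ratios of rows were compared with exact two-sided permutation tests within experiments. Alternatives used DESeq2 1.42.0, limma 3.58.1 (voom), RLE factors, no filter, a shared spread, the replicate number as a block and omission of each library. Library totals without scaling factors, and the block between experiments, were added after the data were seen. The rows, gene lists and tests were chosen with earlier results of these data known. Named genes were the vector rows, endogenous APP and ABCC1, EEF1A1, ACTB, GAPDH, the 3 genes nearest to each row, and APP and ABCC family genes called in any experiment. APLP1 and APLP2 are also named as the rest of the APP family, and PECAM1 as a marker that was not matched.

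Depth was 8866994 to 57937653 assigned read pairs, and 0 counts were taken to allow up to 3. No source states separate transfections for replicates, so p-values measure the spread between these samples. The paper describes weekly platings of each line, and which week a replicate number stands for is not given. Within groups, a chi-square of 1.49 to 22.7 per degree of freedom separated all library pairs. Correlations of same-numbered libraries were -0.13 to 0.09 and did not pair them. On simulated data the tests within the first, the second and the third experiment recovered 84.5%, 62.5% and 57% of 200 genes changed by 1 log2 unit, among 16925, 34601 and 36453 rows, and the interaction test 18.5% among 41141 rows. The simulation used the same spread for every gene and experiment, so these shares do not hold for the spreads of the data. Olfactory receptor genes were taken by symbol, and 51996 of 57905 Ensembl identifiers matched a symbol. PECAM1, 1 of 3 endothelial markers, was not matched. Summed fibroblast, epithelial and endothelial markers reached at most 210.2, 39.8 and 62.0 CPM.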

Additional observations from a re-analysis of the deposited data

Results flagged for a closer look

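Rows of spike-in controls belong to no comparison here. In the ABCC1 cells of the first experiment, replicate 3 had 57 counts on them and replicate 2 had 7, or 0.984 and 0.219 CPM. Replicate 1 had 6 counts, and the empty vector libraries had 3 to 6, or at most 0.137 CPM. The excess of replicates 2 and 3 over the control libraries is why these rows are given, and that of replicate 2 rests on few counts. No source used here says that spike-ins were added, and both later experiments had 1 such count in all.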

How the results depend on the processing

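The lower ratio of the puromycin to the hygromycin resistance gene kept its direction and an exact permutation p of at most 0.00200 under all 20 alternatives, and the fall of both resistance genes from the second to the third experiment passed under all 12. With a spread shared across all libraries, the log2FC of the first experiment no longer passed for exogenous APP (-0.12), endogenous APP (-0.027), hygromycin (-0.18) and puromycin resistance (-0.55), nor did puromycin resistance (-0.64) and endogenous APP (-0.12) without a filter on low counts. In the second experiment hygromycin resistance turned to 0.065 with RLE factors and with DESeq2 and to 0.0045 without the filter, exogenous and endogenous APP turned to -0.10 and -0.080 with library totals, and puromycin resistance passed with totals (-0.78) and with limma-voom (-0.56). Endogenous ABCC1 of the first experiment turned to 0.0049 with totals and 0.091 with the shared spread, and exogenous APP of the third passed with totals (-0.40). From the second to the third experiment, totals turned exogenous APP, endogenous APP and endogenous ABCC1 to 0.44, 0.43 and 0.45 in empty vector and 0.14, 0.18 and 0.58 in ABCC1 cells, and exogenous ABCC1 to 0.10, which DESeq2 put at -0.89 without a call. With medians the log2 difference of exogenous APP over hygromycin resistance turned to 0.026, and that of exogenous over endogenous APP passed at -0.086.

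Without single libraries the log2FC in the first experiment ran from -0.31 to -0.19 for exogenous APP and from -0.055 to 0.018 for endogenous ABCC1. In the second it ran from -0.017 to 0.22 for exogenous APP and from -0.21 to 0.061 for hygromycin resistance. In the third it ran from -0.31 to 0.051 for endogenous APP, from -0.38 to -0.023 for exogenous APP and from -0.28 to -0.035 for puromycin resistance. In ABCC1 cells of the third against the second experiment, exogenous APP ran from -0.72 to -0.52 and exogenous ABCC1 from -0.77 to -0.50, and each lost its call without replicate 1 of either group, exogenous ABCC1 also without replicate 2 or 3 of the third. The log2 ratios of exogenous APP ran from -0.11 to 0.0049 over hygromycin resistance and from -0.092 to -0.050 over the endogenous gene.

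The number of genes called in the first experiment was 6382 and 1528 with the shared spread. In the second it was 581, with 1086 under RLE factors, 149 under totals, 2556 by DESeq2, 1302 by limma-voom, 1402 without the filter and 4924 with the shared spread, and from 8 to 1359 without single libraries. In the third it was 1021, with 1749 under totals, 1561 by DESeq2 and 1885 with a replicate block, and from 394 to 2762 without single libraries. Higher and lower calls split 425 to 156 in the second experiment and 741 to 280 in the third, and with totals 32 to 117 and 822 to 927. Between experiments 5793 genes were called in empty vector cells (749 higher) and 14259 in ABCC1 cells (7671 higher), with totals 15203 (13263 higher) and 23207 (21194 higher), and from 9086 to 16459 in ABCC1 cells without single libraries. The interaction called 551 genes and 904 by DESeq2. The cause of these changes was not tested.

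The replicate numbers did not pair the libraries. With a replicate block, the log2FC of endogenous APP in the first experiment stayed at -0.13 without passing (adjusted p = 0.0630 by edgeR), and no call of a vector row within an experiment was lost. Depth limits the trace rows, where 3 counts correspond to 0.0518 to 0.338 CPM.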
